A study of Physalis pubescens with 5 samples.

Results

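Microtubule transcripts of Physalis floridana P106 were followed in young fruits and in floral buds. A unigene, a transcript assembled from the reads, was included when the protein description deposited for it held the word tubulin, kinesin, microtubule-associated, katanin or phragmoplast. This rule found 370 of the 133571 unigenes, and it used no measured value. By their descriptions 17 were alpha-tubulins, 24 beta-tubulins, 19 gamma-tubulin or members of its complex, 20 tubulin folding or modifying proteins, 197 kinesins, 2 kinesin light chains, 74 microtubule-associated proteins, 15 katanin subunits and 2 carried only a general tubulin name. None was matched by the word phragmoplast alone. The 370 unigenes shared 80 distinct descriptions and had a median length of 503 bases, so many may be fragments or near copies of 1 gene that share reads. The level of a single unigene is therefore uncertain where others carry its description.

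Microtubules are hollow filaments of alpha- and beta-tubulin dimers. Gamma-tubulin complexes start new filaments, dedicated chaperones fold and join the subunits, kinesins walk along the filaments, associated proteins bundle or stabilise them, and katanin cuts them. In plant cells the filaments guide cellulose deposition at the cell cortex, pull chromosomes apart in the spindle and carry cell plate vesicles in the phragmoplast, and in flowers they also serve pollen formation and pollen tube growth.

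The fruits were young fruits taken after fertilization and the floral buds were taken before it, both from cultivar P106, labelled Physalis pubescens as organism, under long days of 16 h light in a glasshouse. The labels give 2 fruit and 2 bud libraries of total RNA, although the design text names triplicates, and a mixed bud and fruit library was not analysed here. The extraction text, shared by all samples, mentions 5-day-old fruits and gives no number of plants or organs pooled. Whether libraries of 1 organ came from different plants is not stated, so the p-values describe the spread between these libraries, which may be technical. The libraries held between 8240000 and 9002000 counts after rounding, and 3 counts, taken as the floor, were worth 0.333 to 0.364 CPM, the count scaled to a fixed library total. These are bulk samples, in which fewer cells of a type and less RNA per cell cannot be told apart.

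Over the 59858 unigenes tested, fruit replicate 1 correlated less with each other library than those did among themselves. Log2 CPM of the 2 fruits correlated at 0.645 (Pearson), fruit with bud at 0.768 for replicate number 1 and at 0.94 for replicate number 2, and the 2 buds at 0.891. For the 289 microtubule unigenes among them these values were 0.756, 0.90, 0.96 and 0.916. Fruit and bud of the same replicate number were the closest by fold in these 289. The share at least 2-fold apart was 8.65% for replicate number 1 and 8.3% for replicate number 2. It was 29.4% between the fruits and 14.5% between the buds. Over all 59858 unigenes tested the shares were 18.5%, 9.1%, 30.1% and 16.6% in that order. There fruit and bud of replicate number 1 were thus further apart than the 2 buds. These correlations are descriptions across unigenes, which share libraries and are not independent. The 51 pollen and tapetum markers summed to 824 and 6613 CPM in the fruits and to 3204 and 3815 CPM in the buds, and 13, 1, 2 and 2 of them were at 0 counts in that order. A LAT52-like transcript of pollen had 0.67 and 865 CPM in the fruits and 600.2 and 678 CPM in the buds. Not all markers of the list followed it. A pollen-specific protein C13-like transcript (Unigene53762_P106) had 495 and 368 CPM in the fruits and 336 and 449 CPM in the buds. The 28 green tissue markers summed to 11250 and 3179 CPM in the fruits and 4135 and 3591 CPM in the buds, the 46 markers of dividing cells to 817 and 622 CPM and to 596 and 665 CPM, and the 31 seed and embryo markers to 14.0 and 608 CPM and to 5332 and 5535 CPM. The seed and embryo sum was thus smaller in both libraries labelled fruit than in both labelled bud. A single vicilin-like transcript (Unigene53698_P106) gave 4.11 and 205 CPM in the fruits and 3046 and 2871 CPM in the buds. Of the 14 tested markers of this list, 8 had both fruits below both buds, against 12.4% of all unigenes. For replicate number 2, 4 of the 14 were higher in fruit. Because of these differences each result is given by library.

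In the comparison of fruit with bud, which asks what differs after fertilization, microtubule transcripts stood at similar summed levels in both organs. All 370 unigenes together summed to 8443 and 6174 CPM in the fruits and to 7212 and 6235 CPM in the buds. Fruit replicate 1 was the highest library, and the other 3 lay between 6174 and 7212 CPM. CPM values are scaled by the library total alone, which puts fruit replicate 1 above fruit replicate 2 by a median log2 difference of 0.20 over all unigenes, and the TMM factors used in the tests and for all log2 values below take that shift to 0.00. Of the 289 tested, the quasi-likelihood test of edgeR, Benjamini-Hochberg adjusted over all 59858 unigenes, called 0 higher and 0 lower, where it called 0% of all unigenes in each direction. At an unadjusted p under 0.05 it had 0 microtubule unigenes, against 1.62% of all unigenes. DESeq2's Wald test called 0 of 288 microtubule unigenes, against 0.0491% of all unigenes higher and 0.21% lower. The median log2 fold change of fruit over bud was 0.10 for the microtubule unigenes and 0.01 for all tested.

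Fruit was also set against the bud of the same replicate number, on log2 CPM with TMM factors. In no microtubule unigene was fruit at least 2-fold higher, or at least 2-fold lower, than bud in both replicate numbers, where the shares of all unigenes were 0.473% higher and 1.84% lower. On the same scale, both fruit libraries lay above both bud libraries in 27 of 289 (9.34%, against 10.2% of all unigenes) and below both in 30 (10.4%, against 12.4%). These shares lie near those of all unigenes. Fruit was higher than bud for both replicate numbers in 70 of 289 and lower for both in 54, against 14024 and 15686 of all 59858. For replicate number 1 alone fruit was higher in 159 of 289 and for replicate number 2 alone in 143, against 28155 and 29610 of all. Fruit was at least 2-fold above bud in 4 microtubule unigenes for replicate number 1 (1.38%, against 5.55% of all) and in 22 for replicate number 2 (7.61%, against 5.55%), and at least 2-fold below in 21 (7.27%, against 13%) and 2 (0.692%, against 3.55%). The separation that did appear was between replicate numbers, in the fruits and in the buds. Fruit replicate 1 exceeded fruit replicate 2 in 195 of 289 microtubule unigenes (67.5%, against 49.8% of all), with a median log2 difference of 0.32, where all unigenes had 0.00. The difference was at least 2-fold upward in 62 (21.5%, against 12.7%) and downward in 23 (7.96%, against 17.4%), and at least 4-fold upward in 5 (1.73%, against 2.98%). The buds differed in the same direction by a median of 0.26, against 0.01 for all unigenes. Bud replicate 1 exceeded bud replicate 2 in 204 of 289, against 30289 of all 59858. It was at least 2-fold above bud replicate 2 in 39 (13.5%, against 9.6%) and below it in 3 (1.04%, against 7.01%).

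**Figure D1:**
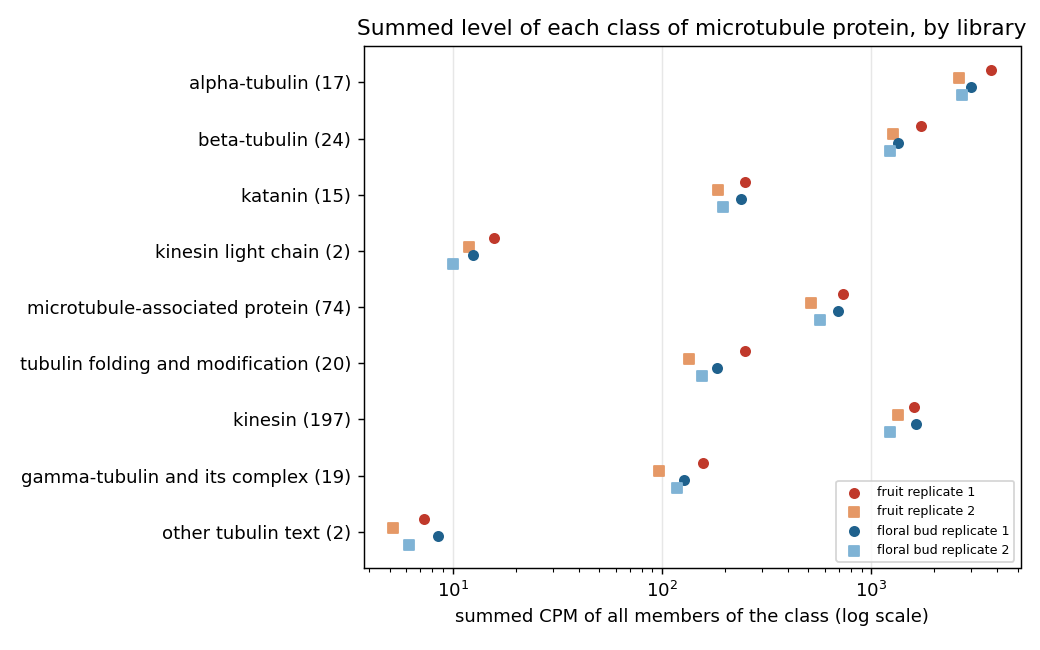
Summed CPM (log scale) of all unigenes in each class of microtubule protein, with the number of unigenes in brackets. Circles are replicates 1 and squares replicates 2, with fruit in red and orange and floral bud in blue. Alpha-tubulin is highest in every library and the 4 libraries lie close together within each class, with fruit replicate 1 rightmost in most classes.

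Tubulin subunits were the most abundant microtubule transcripts. Per unit of length, in RPKM (CPM per kilobase of unigene), alpha-tubulin averaged 329 over the 4 libraries, beta-tubulin 110, katanin 22.3, kinesin light chain 16.1, microtubule-associated proteins 15.0, folding and modifying proteins 13.4, kinesins 12.5 and gamma-tubulin with its complex 11.8. These are reads of a class per kilobase of all its unigenes.

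The 17 alpha-tubulins, one subunit of the tubulin dimer, summed to 3711 and 2623 CPM in the fruits and to 2974 and 2720 CPM in the buds. The mean was 3167 ± 769 CPM in fruit and 2847 ± 180 CPM in bud (SD, n = 2 each), a difference smaller than the spread between the fruits. Unigene55072_P106, with the highest RPKM of the class (a mean of 1570), had 669 and 385 CPM in the fruits and 525 and 385 CPM in the buds. Unigene53315_P106 had 1253 and 721 CPM in the fruits and 989 and 829 CPM in the buds, and both replicates 1 exceeded both replicates 2. Unigene53857_P106 was flatter, with 487 and 420.3 CPM in the fruits and 408 and 459.9 CPM in the buds. Their log2 fold changes were 0.21 (SE 0.45), 0.11 (SE 0.46) and 0.07 (SE 0.39). Their adjusted p was 1 by edgeR, as it was for every other unigene named below in the fit of all 4 libraries.

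Beta-tubulin, the partner subunit, had the highest median log2 fold change of the classes with more than 2 unigenes, at 0.21. The 24 unigenes summed to 1717 and 1264 CPM in the fruits and to 1344 and 1231 CPM in the buds. Of 18 tested, 9 were higher in fruit for both replicate numbers and 2 lower for both, where all unigenes had 14024 and 15686 of 59858. Both fruits exceeded both buds in 6 of 18 (10.2% of all unigenes), 1 lay below both buds (12.4% of all) and in the other tested ones the organs overlapped. None of the 18 was called in any fit. Unigene54997_P106, highest of the class with a mean RPKM of 350.1, had 399 and 371 CPM in the fruits and 376 and 349 CPM in the buds, a log2 fold change of 0.10 (SE 0.38). Unigene55125_P106 had 256 and 113 CPM in the fruits and 166 and 118 CPM in the buds, and Unigene54117_P106 had 205 and 149 CPM in the fruits and 144 and 172 CPM in the buds. In both of these the organs overlapped. Among those whose organs did not overlap on either scale, chosen after the values were seen, Unigene5142_P106 had 126 and 107 CPM in the fruits and 94.2 and 97.4 CPM in the buds, and Unigene4698_P106 had 62.8 and 41.9 CPM in the fruits and 36.3 and 39.8 CPM in the buds. Their log2 fold changes were 0.29 (SE 0.33) and 0.45 (SE 0.33).

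Gamma-tubulin and the other proteins of its ring complex, which start new microtubules, summed to 157 and 97.2 CPM in the fruits and to 128 and 117 CPM in the buds. Here the fruits lay on both sides of the buds. Fruit was higher than bud in 14 of 17 tested unigenes for replicate number 1 and in 4 of 17 for replicate number 2. The gamma-tubulin Unigene36291_P106 had 18.2 and 14.2 CPM in the fruits and 14.1 and 16.4 CPM in the buds, and Unigene37558_P106 had 13.1 and 11.8 CPM in the fruits and 12.5 and 14.0 CPM in the buds. Unigene36184_P106 had 12.8 and 4.73 CPM in the fruits and 10.4 and 7.16 CPM in the buds. In each the organs overlapped, with log2 fold changes of 0.09, -0.08 and -0.03. Gamma-tubulin complex component 4 (Unigene73063_P106), a structural part of the ring, differed most between the fruits, with 7.66 and 1.70 CPM in the fruits and 5.44 and 1.67 CPM in the buds.

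Folding and modifying proteins showed the highest ratio between the fruits among the classes. The 20 unigenes summed to 249 and 135 CPM in the fruits, a ratio of 1.85, and to 182 and 156 CPM in the buds. Chaperone A (Unigene141920_P106), which takes up folded beta-tubulin, had 44.8 and 26.5 CPM in the fruits and 28.1 and 26 CPM in the buds. Chaperone E (Unigene73127_P106), which acts on alpha-tubulin, had 19.4 and 21.1 CPM in the fruits and 16.1 and 22.7 CPM in the buds. For chaperone A fruit replicate 1 was the high library, and after TMM scaling both fruits exceeded both buds, with a log2 fold change of 0.39 (SE 0.34). For chaperone E the organs overlapped. A tubulin--tyrosine ligase-like protein 12 transcript (Unigene8953_P106), of a family that adds amino acids to tubulin tails, had 56.1 and 23.3 CPM in the fruits and 36.4 and 24.0 CPM in the buds. Chaperone D (Unigene75206_P106), which helps to join the dimer, had 3.55 and 0.73 CPM in the fruits and 3.01 and 1.43 CPM in the buds. Both of these were high in replicates 1 of either organ and low in replicates 2.

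Kinesins, the motors, summed to 1606 and 1337 CPM in the fruits and to 1632 and 1233 CPM in the buds. Fruit replicate 1 and bud replicate 1 were the highest libraries for this class. The median log2 fold change over the 150 tested was 0.10, with -0.03 for replicate number 1 and 0.16 for replicate number 2. The kinesins were sorted into groups by name after the values were seen.

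The KIF4 group, named after an animal motor of mitotic chromosomes and related to plant motors of cell wall deposition, summed to 317 and 295 CPM in the fruits and 344 and 246 CPM in the buds (12 unigenes), the largest kinesin sums. Its main unigene, Unigene119984_P106, had 175 and 137 CPM in the fruits and 192 and 119 CPM in the buds, a log2 fold change of 0.02 (SE 0.40). All 10 tested members were higher in fruit than in bud for replicate number 2, and 1 of the 10 for replicate number 1. The 36 unigenes of the kinesin-5 group, described as a kinesin-related protein that in tobacco works in spindle and phragmoplast, summed to 246 and 166 CPM in the fruits and 203 and 131 CPM in the buds. In this group 15 of 30 tested were higher in fruit for both replicate numbers and 1 was lower for both, against 14024 and 15686 of 59858 over all unigenes, and both fruits exceeded both buds in 6 of 30, against 10.2% of all. One of the 6, Unigene70312_P106, was picked after its values were seen. It had 28.7 and 24.9 CPM in the fruits and 22.2 and 16.7 CPM in the buds. Its log2 fold change was 0.48 (SE 0.31). The median of the group was 0.34, and 0 were called. All 36 carried the deposited KEGG term kinesin family member 11, as did 1 of the 11 unigenes named KIF11. Of the 8 tested with the KIF11 name, 0 were higher in fruit for both replicate numbers and 1 was lower for both. Their median was -0.15.

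The smaller motor groups differed in sign, with medians between -0.39 for KIF14 and KLP2 and 0.35 for the kinesin-like calmodulin-binding proteins. None of these was called in any fit. The armadillo repeat-containing kinesins had 0.18, with 7 of 17 higher in fruit for both replicate numbers and 2 lower for both. The KIF24 and central motor kinesins, relatives of animal motors that take microtubules apart, summed to 161 and 141 CPM in the fruits and 190 and 159 CPM in the buds, and all 3 were lower in fruit for both replicate numbers. Unigene109676_P106 had 82.7 and 87.5 CPM in the fruits and 101 and 101 CPM in the buds, with no overlap and a log2 fold change of -0.23 (SE 0.34). All 5 KIF19 unigenes were likewise lower for both replicate numbers. They summed to 85.0 and 75.4 CPM in the fruits and 89.1 and 110.3 CPM in the buds. Over all 59858 unigenes 14024 were higher and 15686 lower for both replicate numbers. Both fruits lay below both buds in 2 of the 3 KIF24 and central motor kinesins and in 2 of the 5 KIF19 unigenes, against 12.4% of all. The KIF19 name is that of an animal motor that limits the length of cilia.

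**Figure D2:**
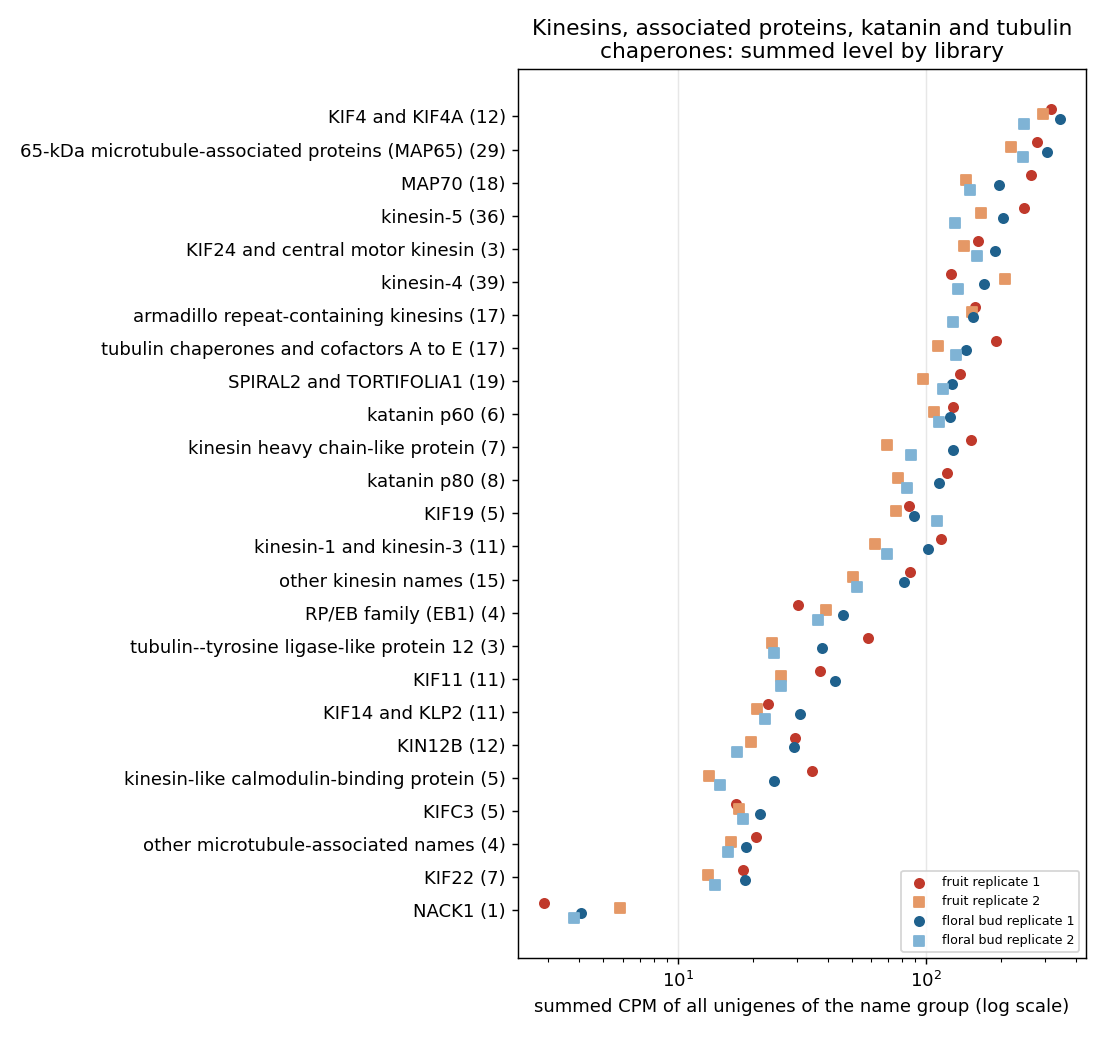
Summed CPM (log scale) of each name group of kinesins, associated proteins, katanin and tubulin chaperones, with the number of unigenes in brackets. Circles are replicates 1 and squares replicates 2, with fruit in red and orange and floral bud in blue. In most groups the replicates 1 lie right of the replicates 2, whereas kinesin-4 is highest in fruit replicate 2 with 208 CPM.

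Among the motors of the phragmoplast, NACK1 and KIN12B were present at low levels. The kinesin-like protein NACK1 (Unigene10226_P106), which in tobacco starts the kinase cascade that widens the cell plate, had 2.89 and 5.83 CPM in the fruits and 4.05 and 3.82 CPM in the buds, so the buds lay between the fruits. The 12 KIN12B unigenes, named after an Arabidopsis phragmoplast motor, summed to 29.5 and 19.7 CPM in the fruits and 29.3 and 17.3 CPM in the buds. The 17 armadillo repeat-containing kinesins, a plant group with a role in Arabidopsis root hairs, summed to 157 and 153 CPM in the fruits and 153 and 127 CPM in the buds. The 2 kinesin light chains, cargo adaptors, summed to 142 and 99 counts in the fruits and 108 and 84 counts in the buds. For light chain Unigene44534_P106 both fruits (8.22 and 8.62 CPM) exceeded both buds (7.17 and 6.93 CPM), with a log2 fold change of 0.28 (SE 0.33). For Unigene45874_P106 the organs overlapped, at 7.55 and 3.40 CPM in the fruits and 5.32 and 3.10 CPM in the buds. A short unigene named only kinesin-like protein, Unigene36735_P106, had one of the higher RPKM values of the class (a mean of 70.2) with 27.6 and 16.0 CPM in the fruits and 23.7 and 19.5 CPM in the buds.

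The unigenes named kinesin-4 stood higher in summed CPM in fruit replicate 2 than in fruit replicate 1, against the order of most kinesin groups on that scale. Kinesin-4 is a database name here. The KEGG terms deposited with 19 of the 39 place 17 with kinesin family member C2/C3 and 2 with C1, motors that walk to the minus end, and 20 had no such term. They summed to 125 and 208 CPM in the fruits and to 170 and 134 CPM in the buds. With TMM factors the median log2 difference of fruit replicate 1 minus fruit replicate 2 was -0.02 over the 28 tested. It was 0.23 for all tested kinesins and 0.41 for the kinesin-5 group. It was lower in the KIF4 group (-0.31) and the armadillo repeat-containing kinesins (-0.11), so a typical kinesin-4 unigene did not stand apart. Unigene36518_P106 differed most between the fruits, with 1.22 and 39.7 CPM, against 20.1 and 13.6 CPM in the buds. Both buds lay between the fruits, and the log2 fold change was 0.40 with an SE of 1.46. Reads reached 39.4% of its length in fruit replicate 1 and 98.1% in fruit replicate 2, against 97.4% and 93.9% in the buds.

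An alpha-tubulin likewise had fruit replicate 1 lowest and fruit replicate 2 highest, more steeply. Unigene127643_P106, of 1158 bases, had 5 and 1184 counts in the fruits (0.56 and 144 CPM) and 325 and 415 counts in the buds (37.6 and 49.6 CPM). Fruit replicate 1 was near 0, the buds lay close together, and fruit replicate 2 was highest. Reads reached 14.7% and 99.1% of its length in the fruits, against 83.8% and 97.7% in the buds. Its log2 fold change was 0.84 with an SE of 1.99. A second one, Unigene128185_P106, named after its values were seen, had 0.11 and 43.7 CPM in the fruits, of which the first is 1 count, and 10.3 and 12.7 CPM in the buds.

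**Figure D3:**
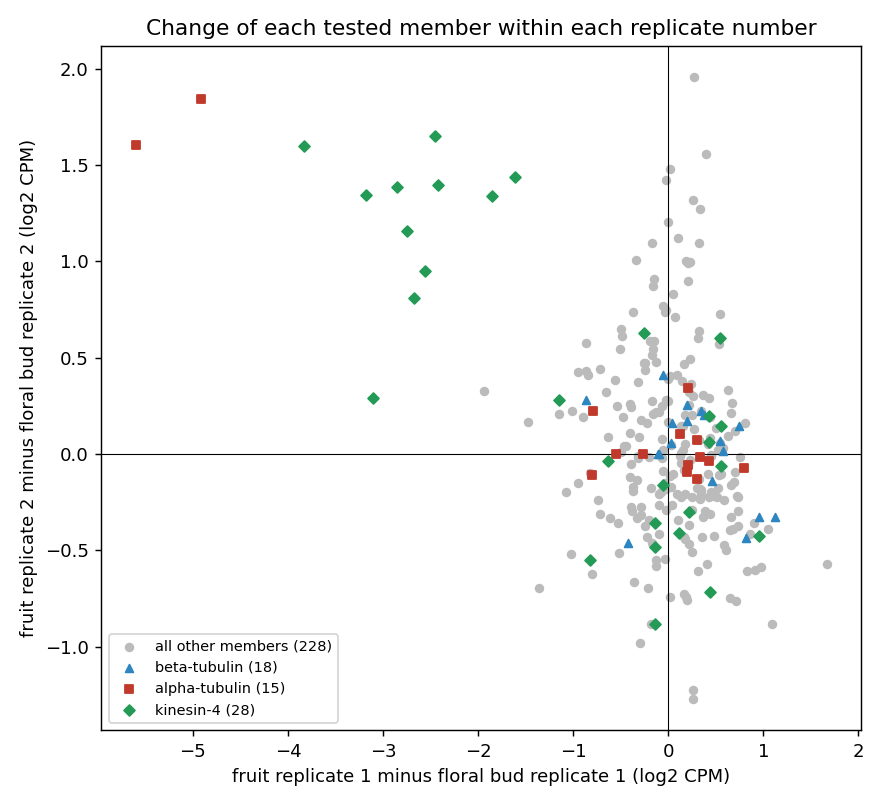
Log2 CPM difference of fruit minus floral bud for each of the 289 tested microtubule unigenes, for replicate number 1 (horizontal) and replicate number 2 (vertical). Red squares are alpha-tubulins, green diamonds kinesin-4, blue triangles beta-tubulins and grey circles all others. Most points lie near the centre, and 2 alpha-tubulins and 11 kinesin-4 unigenes stand at the upper left, lower in fruit for replicate number 1 and higher for replicate number 2.

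In all, 13 of 289 tested microtubule unigenes were at least 4-fold lower in fruit replicate 1 than in fruit replicate 2 on log2 CPM with TMM factors (4.5%, against 8.28% of all unigenes). They were these 2 alpha-tubulins and 11 of the 28 tested kinesin-4 unigenes, and the set was chosen by that difference, so its values are a description. The 11 kinesin-4 unigenes summed to 7.44 and 151 CPM in the fruits and to 69.7 and 67.5 CPM in the buds. The other 28 kinesin-4 unigenes, tested or not, summed to 118 and 56.8 CPM in the fruits and to 101 and 66.4 CPM in the buds, the replicate order seen in most classes. The 2 alpha-tubulins summed to 0.667 and 187 CPM in the fruits and to 47.9 and 62.2 CPM in the buds, while the other 15 summed to 3710 and 2436 CPM in the fruits and to 2927 and 2658 CPM in the buds. By deposited KEGG term, 4 of the 11 kinesins were family member C2/C3, 1 was C1 and 6 had none. In sum the pollen and tapetum markers also had fruit replicate 1 lowest and fruit replicate 2 highest, at 824 and 6613 CPM in the fruits and 3204 and 3815 CPM in the buds. Of the 42 tested, 25 were at least 4-fold lower in fruit replicate 1 than in fruit replicate 2, against 8.28% of all unigenes. The part of these markers in the values above was not tested.

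Calls for these unigenes depended on which fruit library was used. A fit without 1 fruit library leaves a single fruit library, which is assumed to vary like the buds. Without fruit replicate 2, edgeR called 0 microtubule unigenes higher and 10 of 304 lower in fruit, where it called 2.29% of all unigenes higher and 6.14% lower. These were both alpha-tubulins, 7 kinesin-4 unigenes and 1 EB1 protein. The log2 fold change was -6.37 for Unigene127643_P106 (SE 0.75, adjusted p = 1.44e-08), -6.62 for Unigene128185_P106 (SE 0.96, adjusted p = 1.43e-06) and -3.86 for Unigene36518_P106 (SE 0.67, adjusted p = 3.81e-05). The other 6 kinesin-4 unigenes called lay between -4.84 and -2.65.

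Without fruit replicate 1, edgeR called 2 of 294 microtubule unigenes higher and 1 lower, where it called 1.44% of all unigenes higher and 0.466% lower. The 2 higher were the same 2 alpha-tubulins, with log2 fold changes of 2.04 for Unigene128185_P106 (SE 0.45, adjusted p = 0.0106) and 1.84 for Unigene127643_P106 (SE 0.43, adjusted p = 0.0159). Their direction was thus opposite in the 2 fits, which share the buds. The lower one, the alpha tubulin 2 Unigene120369_P106, had its best protein hit in a green alga. It had 112 and 0 counts in the fruits and 126 and 0 counts in the buds. Its log2 fold change of -8.86 (SE 2.35) therefore rests on bud replicate 1. Leaving out either bud library gave no calls among all unigenes tested, the microtubule ones included.

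**Figure D4:**
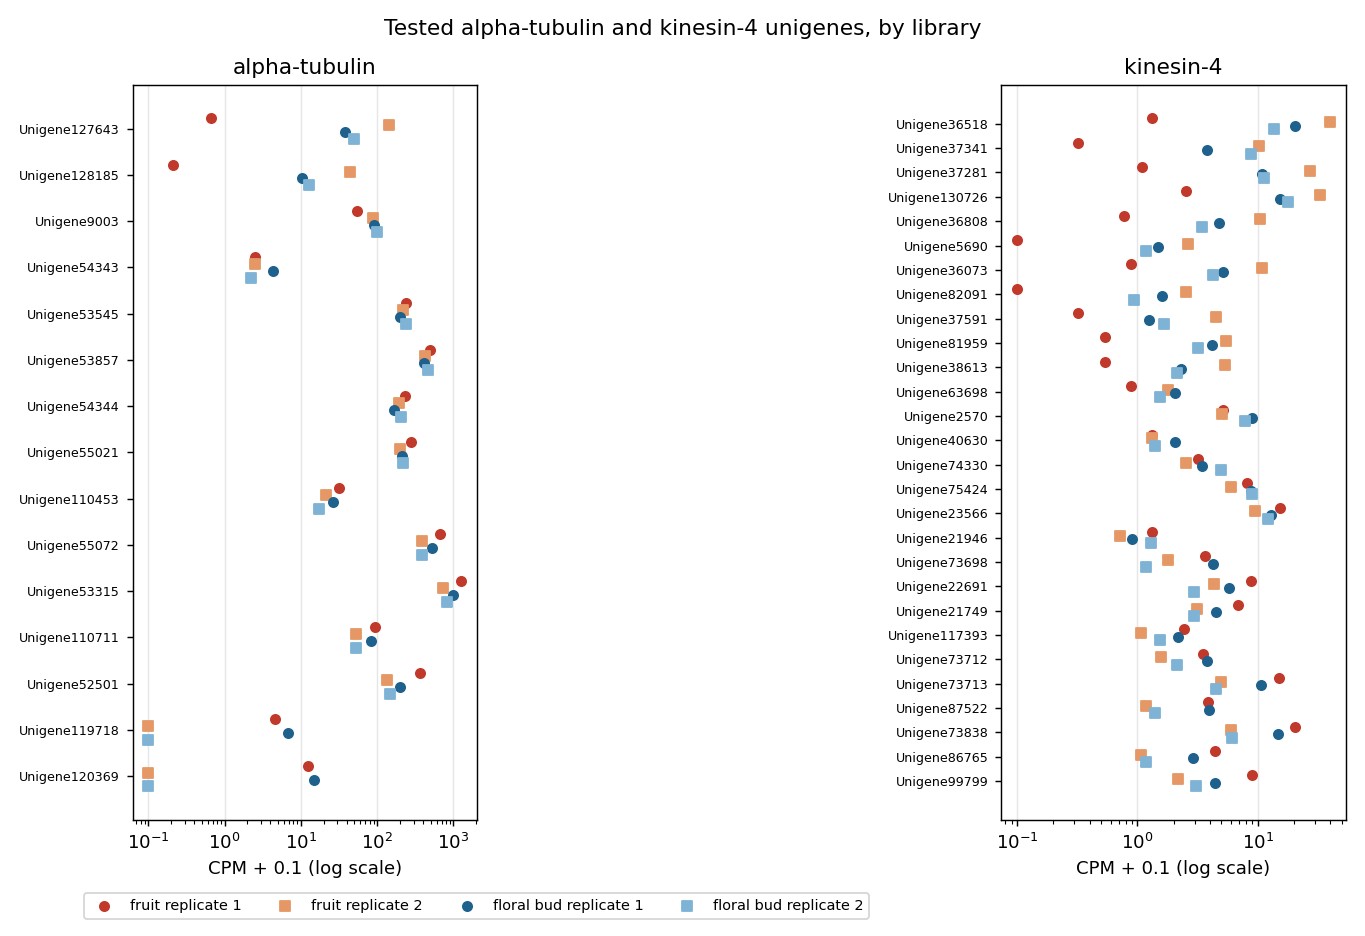
CPM plus 0.1 (log scale) of each tested alpha-tubulin (left) and kinesin-4 unigene (right), ordered by the difference between the fruit libraries. Red circles are fruit replicate 1, orange squares fruit replicate 2, dark blue circles floral bud replicate 1 and light blue squares floral bud replicate 2. In the upper rows fruit replicate 1 lies far left, fruit replicate 2 right and the buds between.

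Microtubule-associated proteins summed to 731 and 516 CPM in the fruits and to 694 and 565 CPM in the buds, with a median log2 fold change of 0.03 over 56 tested. The 29 MAP65 unigenes, which bundle antiparallel microtubules in spindle and phragmoplast, summed to 279.9 and 219 CPM in the fruits and 306 and 245 CPM in the buds. Unigene17716_P106 had 72.9 and 82.0 CPM in the fruits and 91.3 and 98.7 CPM in the buds, and Unigene18357_P106 had 23.3 and 22.7 CPM in the fruits and 40.3 and 25.6 CPM in the buds. In both, the fruit values in CPM lay below the bud values, but after TMM scaling the organs overlapped for the first. Their log2 fold changes were -0.27 (SE 0.35) and -0.49 (SE 0.35).

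The plant-specific MAP70 proteins, which bind cortical microtubules, summed to 264 and 144 CPM in the fruits and 196 and 150.4 CPM in the buds. Their main unigene, Unigene6909_P106, had 154 and 86.0 CPM in the fruits and 111 and 87.4 CPM in the buds, so fruit replicate 1 was high and fruit replicate 2 level with bud replicate 2. SPIRAL2 and TORTIFOLIA1, whose loss makes Arabidopsis organs twist, summed to 136 and 97.2 CPM in the fruits and 127 and 117 CPM in the buds. An EB1B transcript (Unigene139423_P106), for a protein that tracks growing microtubule ends, had 8.55 and 29.1 CPM in the fruits and 32.4 and 24.4 CPM in the buds. Fruit replicate 1 was the low library, and the log2 fold change was -0.51 (SE 0.71) with all libraries. Without fruit replicate 2 it was -1.82 (SE 0.53, adjusted p = 0.0209).

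Katanin subunits summed to 249 and 184 CPM in the fruits and to 238 and 196 CPM in the buds. The cutting subunit p60 had 128 and 107 CPM in the fruits and 125 and 112 CPM in the buds, and the p80 subunit, which directs it, had 121 and 77.2 CPM in the fruits and 113 and 83.7 CPM in the buds. The p60 Unigene6336_P106 had 64.2 and 56.6 CPM in the fruits and 56.8 and 53.7 CPM in the buds, and Unigene143749_P106 had 34.8 and 29.5 CPM in the fruits and 38.8 and 31.3 CPM in the buds. The p80 Unigene79628_P106 had 48.3 and 33.3 CPM in the fruits and 49.0 and 33.1 CPM in the buds, which differed by replicate number and hardly by organ. The short p80 Unigene71382_P106 differed most between the fruits, with 8.66 and 2.18 CPM, against 4.97 and 2.87 CPM in the buds. None of the 13 katanin unigenes tested was called in the fit of all 4 libraries. The 2 unigenes with a general tubulin name were low, Unigene19495_P106 with 5.44 and 4.0 CPM in the fruits and 6.48 and 5.13 CPM in the buds, and Unigene37943_P106 with 1.89 and 1.21 CPM in the fruits and 2.08 and 1.07 CPM in the buds.

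Some microtubule unigenes were listed for replicates 1 only. Of the 370, 329 (88.9%) had counts in all 4 libraries, against 64.4% of all unigenes, and 19 (5.14%, against 15.2%) had none in either replicate 2. Of these 19, 16 had a best protein hit outside land plants, in 6 cases in oomycetes and in 10 in algae or dinoflagellates, and they were all the microtubule unigenes with such a hit. For 2 of the other 3 the hit was a land plant and for 1 no species was given. The 16 summed to 25.8 and 0 CPM in the fruits and to 29.1 and 0 CPM in the buds, so that both organs of replicate number 1 held them at like levels. The beta-tubulin Unigene129338_P106, with an oomycete hit, had 43 and 0 counts in the fruits and 43 and 0 counts in the buds. Its fold change therefore compares organs only within replicate number 1, where fruit had 4.78 CPM and bud 4.97 CPM. By contrast, 310 of the 370 had their best hit in tomato and 331 in nightshades.

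Proteins that work with microtubules were read from 4 keyword lists that leave out the unigenes above. The 29 unigenes of the chaperonins that fold tubulin and actin summed to 1913 and 1212 CPM in the fruits and 1618 and 1405 CPM in the buds, and 18 of 23 tested were higher in fruit for replicate number 1 and 3 of 23 for replicate number 2. The sums stood in the order of libraries seen for the tubulin folding proteins. That order was not particular to folding, since all 370 microtubule unigenes together and the green tissue markers had it too. The 40 mitotic cell cycle unigenes summed to 244 and 231 CPM in the fruits and 252 and 254 CPM in the buds, and 0 were called in any fit of either list. Median log2 fold changes were 0.02 for the chaperonins and -0.05 for the mitotic list, against 0.01 for all unigenes.

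The 108 other spindle and microtubule unigenes summed to 1219 and 1132 CPM in the fruits and 1152 and 1224 CPM in the buds, with a median of -0.08. Among the 77 tested, 2 of the 11 TPX2-like unigenes, for a spindle assembly factor, stood in the order of libraries of the alpha-tubulin pair. Unigene2179_P106 had 0.44 and 30.1 CPM in the fruits and 5.78 and 7.76 CPM in the buds, and Unigene138357_P106 had 0.78 and 15.7 CPM in the fruits and 3.01 and 3.58 CPM in the buds. The other 9 did not have fruit replicate 1 lowest and fruit replicate 2 highest. Without fruit replicate 1 these 2 were the calls of the list, both higher (2 of 79, against 1.44% of all unigenes), and without fruit replicate 2 the first of them was called lower (1 of 80, against 6.14%). The keyword list for cytokinesis vesicles took in 91 unigenes, of dynamins, patellins, KNOLLE and KEULE. It is wider than its name, since it held 20 unigenes of dynamin-related protein 3A, which divides mitochondria and peroxisomes, 6 of ARC5, which divides plastids, and 1 of Dnm1. The 91 together summed to 1677 and 1157 CPM in the fruits and 1313 and 1158 CPM in the buds, with a median of 0.10. Without fruit replicate 2, 4 of 74 were called higher, against 2.29% of all unigenes, and 6 lower, against 6.14%. The 4 higher were 3 patellin-5 unigenes and 1 of dynamin-related protein 4C, and the 6 lower were 3 of dynamin-related protein 1C, 2 of patellin-4 and 1 of dynamin-2B. The patellin-5 Unigene120059_P106 had 142 and 62.6 CPM in the fruits and 38.9 and 46.1 CPM in the buds, above both buds in both fruits. The patellin-4 Unigene138310_P106 had 1.44 and 16.9 CPM in the fruits and 8.10 and 9.19 CPM in the buds, with the buds between the fruits. The dynamin-related protein 1C Unigene82219_P106 had 0 and 3.64 CPM in the fruits and 11.7 and 9.07 CPM in the buds, below both. The TPX2, patellin and dynamin unigenes named here were picked with their values in view. Without fruit replicate 1, 0 of these 91 were called.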

How the data were processed

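For the assembly, the alignment, the counting and its strand setting, the program is not given in the sources used here. Counts were deposited by the authors as uniquely mapped reads per unigene, per the file headers. RPKM, per the file headers, is the count divided by unigene length and library size, and the deposited values were recovered from the counts to a relative deviation of 1.1e-08. The deposited coverage is, per the file headers, the percentage of a unigene's length reached by reads. Unigenes not listed in a file were given 0 counts there. Descriptions came from the replicate 2 files where they gave one and otherwise from the replicate 1 files.

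All 4 count columns were tested together with edgeR 4.0.16 in R 4.3.3 (filterByExpr by organ, TMM factors, glmQLFit and glmQLFTest, 2 residual degrees of freedom, two-sided, Benjamini-Hochberg adjustment over 59858 unigenes, threshold 0.05). Each SE is the log2 fold change over the root of its F value. Log2 CPM values used a prior count of 2. CPM sums include untested unigenes. Alternatives were RLE factors, DESeq2 1.42.0, no filter, the replicate block, each library left out, only unigenes of at least 500 bases and 1 unigene per description. Leaving out unigenes in neither replicate 2 file was added after seeing the data. With 2 libraries per organ an exact permutation test reaches 0.333 at best, so none was run.

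The unigenes named were, in each class, those called by edgeR, the 3 with the highest mean RPKM among those of at least 300 bases, the largest change in each direction among those at least 2-fold changed for both replicate numbers, and the one differing most between the fruits. All others were chosen after their values were seen, also where this is not repeated. The members, classes and keyword lists were chosen with earlier results of these data known. The mitotic list's term cyclin-B also takes in calcyclin-binding protein. Floors cover counting error only, since no molecular identifiers are described.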

Additional observations from a re-analysis of the deposited data

How the results depend on the processing

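The counts of called microtubule unigenes stayed at 0 higher and 0 lower with RLE factors, DESeq2, no filter and the replicate block. Leaving out each library in turn gave 0 to 2 higher and 0 to 10 lower, and for all unigenes 0 to 1546 higher and 0 to 4135 lower. DESeq2 called 30 of all unigenes higher and 128 lower, and the cause of its excess over edgeR was not tested. The replicate numbers are not stated to mark a shared batch, and with 2 pairs the samples share only a number. Differences of replicate 1 minus replicate 2 in fruit and in bud correlated at 0.466 over 59858 unigenes. With the replicate block the median log2 fold change of the microtubule unigenes was 0.07.

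Leaving out each library in turn moved that median from -0.16 to 0.27. By class the ranges were -0.14 to 0.35 for kinesins, -0.20 to 0.12 for katanin, -0.33 to 0.51 for folding and modifying proteins, 0.00 to 0.37 for alpha-tubulin, 0.03 to 0.28 for beta-tubulin, -0.23 to 0.28 for gamma-tubulin and its complex, and -0.17 to 0.30 for microtubule-associated proteins. With 1 unigene per description the alpha-tubulin median was -0.33 over 4 unigenes, against 0.11 over all 15 tested. The 4 included Unigene120369_P106 and Unigene119718_P106, which had algal best hits and no counts in either replicate 2. Using only unigenes of at least 500 bases, or leaving out those in neither replicate 2 file, moved no class median by more than the replicate spread.

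Single unigenes turned direction mostly with the libraries. Under the replicate block the log2 fold change was -1.92 for Unigene127643_P106, -1.04 for Unigene36518_P106 and -0.02 for Unigene36735_P106. For Unigene37943_P106 it was 0.00 with RLE factors or the replicate block and 0.01 with no filter. For Unigene79628_P106 it was 0.01 with RLE factors, DESeq2 or the replicate block and 0.02 with no filter. With each library left out in turn, the tubulins ranged from -6.37 to 1.84 (Unigene127643_P106), -0.21 to 0.37 (Unigene53315_P106), -0.07 to 0.25 (Unigene53857_P106), -0.11 to 0.46 (Unigene55072_P106), -7.32 to 7.25 (Unigene129338_P106), -0.03 to 0.38 (Unigene54117_P106), -0.20 to 0.76 (Unigene55125_P106), -0.76 to 0.45 (Unigene36184_P106), -0.07 to 0.29 (Unigene36291_P106), -0.22 to 0.10 (Unigene37558_P106), -0.92 to 1.36 (Unigene73063_P106) and -0.34 to 0.46 (Unigene37943_P106). The kinesins ranged from -0.20 to 0.33 (Unigene119984_P106), -3.86 to 1.36 (Unigene36518_P106), -0.30 to 0.25 (Unigene36735_P106) and -0.18 to 0.75 (Unigene45874_P106). The other proteins ranged from -1.82 to 0.17 (Unigene139423_P106), -0.08 to 0.53 (Unigene6909_P106), -0.71 to 1.05 (Unigene71382_P106), -0.18 to 0.24 (Unigene79628_P106), -0.20 to 0.45 (Unigene73127_P106), -1.46 to 0.59 (Unigene75206_P106) and -0.24 to 0.80 (Unigene8953_P106). The cause was not tested. With 2 libraries per organ and fruits this far apart, small organ differences may have been missed, and the power to find them was not measured. Large differences also went uncalled by edgeR. The seed and embryo markers summed to 14.0 and 608 CPM in the fruits and to 5332 and 5535 CPM in the buds. Yet edgeR with all 4 libraries called 0 of the 14 tested, and 0 of all 59858 unigenes. A p above the threshold therefore does not show equal levels.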
